A study of Mus musculus with 4 samples.

Results

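The interleukin 1 family and inflammasome genes are taken here as 10 named genes, found by matching gene identifiers to mouse symbols, out of 22913 genes in each library. They are the ligands Il1a, Il1b, Il18 and Il33, the antagonist Il1rn, the receptor chains Il1r1, Il1rap, Il1r2 and Il1rl1, and the inflammasome sensor Nlrp3. RNA sequencing was done on dermal white adipose tissue (dWAT), the layer of fat cells beneath the dermis that surrounds the bases of the hair follicles (HFs), which was microdissected from the skin of C57BL/6 mice. There was 1 library for each of 4 groups, named OTD (old, telogen), YTD (young, telogen), OAD (old, anagen) and YAD (young, anagen). Telogen is the resting phase of the HF and anagen the growth phase, which was induced here by depilation in both ages, so that the phase and the depilation cannot be told apart. The old mice were 18 months and the young mice 2 months old in the submitters' protocol. The age tag is 18 months on the YTD sample and 2 months on the OAD sample, against their titles, and the groups were taken from the titles. Tissue of several mice went into each group, and how it was combined into 1 library is not given in the sources used here. No group has a replicate, so each comparison is between single libraries and carries no test and no p-value.

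Interleukin 1 signalling is an early alarm of injured or infected tissue. Il1a and Il1b encode ligands of the same receptor, whose signalling chain is Il1r1 and whose accessory chain is Il1rap, while Il1rn encodes a secreted antagonist that occupies the receptor without signalling and Il1r2 a decoy receptor that binds ligand without passing the signal on. Il1b and Il18 are made as inactive precursors, which caspase 1 (Casp1) cleaves inside inflammasomes, the protein assemblies that sensors such as Nlrp3 build with the adaptor Pycard. Il33 is a nuclear alarmin released from damaged barrier and vessel-lining cells, and its receptor chain Il1rl1 (ST2) is found on mast cells and some lymphocytes. In skin, keratinocytes are known to hold Il1a and Il1rn, and in fat, macrophages are known as a source of Il1b.

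Promoter sequences are shown for 5 genes the results below turn on, Il1b, Il18 and Il33, which were changed between ages in telogen, and Il1a and Il1rn, which were higher in anagen. Each is the 250 bases before an annotated start in RefSeq on the mouse build GRCm38.p6, the build of the deposited positions, read 5′ to 3′ on the gene's strand in lower case. Capitals mark the letters that matched any of the motifs searched on both strands: AP-1 (TGANTCA), C/EBP (TTNCNNAA), a TATA box (TATAAA), an IRF element (GAAANNGAAA) and the NF-kB motif.
Il1b (chr2:129371140-129371389, minus strand): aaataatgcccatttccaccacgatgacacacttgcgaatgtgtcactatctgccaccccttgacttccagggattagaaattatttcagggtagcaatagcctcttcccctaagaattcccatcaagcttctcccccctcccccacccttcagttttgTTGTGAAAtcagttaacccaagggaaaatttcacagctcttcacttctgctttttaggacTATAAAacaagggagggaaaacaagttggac
Il18 (chr9:50554450-50554699, plus strand): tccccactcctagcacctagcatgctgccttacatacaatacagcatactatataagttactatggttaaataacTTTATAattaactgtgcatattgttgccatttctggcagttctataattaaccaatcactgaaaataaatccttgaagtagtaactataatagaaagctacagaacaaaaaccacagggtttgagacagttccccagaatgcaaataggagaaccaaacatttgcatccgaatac
Il33 first start (chr19:29924863-29925112, plus strand): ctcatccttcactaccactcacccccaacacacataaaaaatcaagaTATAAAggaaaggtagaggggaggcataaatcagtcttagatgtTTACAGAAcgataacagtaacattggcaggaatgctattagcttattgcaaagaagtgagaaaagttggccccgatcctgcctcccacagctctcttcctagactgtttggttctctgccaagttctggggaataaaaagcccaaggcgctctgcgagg
Il33 second start (chr19:29945540-29945789, plus strand): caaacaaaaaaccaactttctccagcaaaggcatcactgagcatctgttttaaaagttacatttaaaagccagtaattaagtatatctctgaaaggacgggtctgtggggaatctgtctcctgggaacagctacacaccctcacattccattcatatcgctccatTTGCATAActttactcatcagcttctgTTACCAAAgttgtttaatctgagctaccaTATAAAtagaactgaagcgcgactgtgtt
Il1a (chr2:129309973-129310222, minus strand): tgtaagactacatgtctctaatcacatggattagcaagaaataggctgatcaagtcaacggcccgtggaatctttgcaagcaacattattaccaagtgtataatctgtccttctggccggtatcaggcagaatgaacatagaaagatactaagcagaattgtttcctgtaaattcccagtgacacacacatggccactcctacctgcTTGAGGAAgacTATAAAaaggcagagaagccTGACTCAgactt
Il1rn first start (chr2:24336610-24336859, plus strand): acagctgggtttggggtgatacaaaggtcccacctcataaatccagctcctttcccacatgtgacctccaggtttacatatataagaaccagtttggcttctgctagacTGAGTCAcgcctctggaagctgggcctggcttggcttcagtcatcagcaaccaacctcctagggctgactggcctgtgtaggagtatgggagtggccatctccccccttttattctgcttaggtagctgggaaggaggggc

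All 10 genes were found in that promoter set, with 16 annotated starts. In Il1b a TATA box lay at -31 to -26 from the start and a C/EBP match at -91 to -84. The second Il33 start had a TATA box at -29 to -24 with C/EBP matches at -85 to -78 and -58 to -51, and the first had a TATA box farther out, at -203 to -198, and a C/EBP match at -159 to -152. The window of Il18 held only a TATA box match on the reverse strand, at -175 to -170. Il1a had a TATA box at -32 to -27, a C/EBP match at -43 to -36 and an AP-1 match at -12 to -6, and the first Il1rn start had an AP-1 match at -141 to -135. In the sequences printed, no match overlapped one of another motif, whereas at the second Il1r1 start the NF-kB match overlapped a C/EBP match, and at the third Il1rn start a pair of C/EBP matches overlapped. Over the 10 genes, AP-1 was matched at 2 of the 16 starts, NF-kB at 2 (Il1r1 and Nlrp3), C/EBP at 12, the TATA box at 5 and the IRF element at 0. Among 32851 promoter windows of the same length, 6.75% held the AP-1 letters, 3.9% NF-kB, 36.8% C/EBP, 12.4% the TATA box and 2.98% the IRF element. These matches describe letters in a window, not binding, and a window without a match shows only that those letters are not in it. For the Il18 start and the first Il33 start, the bases after the start were not found in a GENCODE M21 transcript of the gene, so these starts are less certain. Which start was used in dWAT was not measured.

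All 10 are protein-coding genes, at these positions on GRCm38. The ligands are Il1a (ENSMUSG00000027399, chr2:129299610-129309972, minus strand), Il1b (ENSMUSG00000027398, chr2:129364570-129371139, minus strand), Il18 (ENSMUSG00000039217, chr9:50575273-50581837, plus strand) and Il33 (ENSMUSG00000024810, chr19:29925114-29960718, plus strand), and the antagonist is Il1rn (ENSMUSG00000026981, chr2:24336853-24351494, plus strand). The receptor chains are Il1r1 (ENSMUSG00000026072, chr1:40225080-40317257, plus strand), Il1r2 (ENSMUSG00000026073, chr1:40074079-40125231, plus strand), Il1rl1 (ENSMUSG00000026069, chr1:40429570-40465415, plus strand) and Il1rap (ENSMUSG00000022514, chr16:26581704-26725264, plus strand), and the sensor is Nlrp3 (ENSMUSG00000032691, chr11:59541568-59566956, plus strand). The span listed for Il18 starts inside the annotated gene, which begins at 50554827 in GENCODE M21, and that of Il1rap ends before the annotated end at 26730117. The authors deposited expression as FPKM, the fragments mapped to a gene per kilobase of its length and per 1000000 mapped fragments. The lengths listed for all 10 genes equal the coding length of an annotated transcript, from 537 bases for Il1rn to 3102 bases for Nlrp3. The number of fragments behind each value was estimated from the lowest FPKM in each library, which gave 19200000 to 24300000 fragments per library. A value worth 3 fragments or fewer is called under the floor, and a fold or ratio against it is given as a lower bound. That bound puts the floor in place of the value and leaves out counting error, so the fold itself may be smaller. Folds are ratios of FPKM with an exact 95% interval (Clopper-Pearson on the estimated fragments), which covers counting error only. A difference in log2 is that of log2(FPKM + 1), which makes changes at low FPKM look smaller than their fold; changed means a difference of at least 1 in size.

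The libraries differed in more than age. Mitochondrially encoded genes made up 44.7% (YTD) and 52.7% (OTD) of all FPKM in telogen and 14.4% (YAD) and 18.3% (OAD) in anagen. The 10 adipocyte markers listed were detected in all 4 libraries, with a summed FPKM of 1911 to 7797. Hair shaft genes summed to 34.7 in OTD and 103 in YTD against 11374 and 11822 in anagen, and skeletal muscle genes to 59019 and 93002 in telogen against 14063 and 10605 in OAD and YAD. In bulk tissue of this kind, fewer cells of a type and less RNA per cell cannot be told apart.

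**Figure D1:**
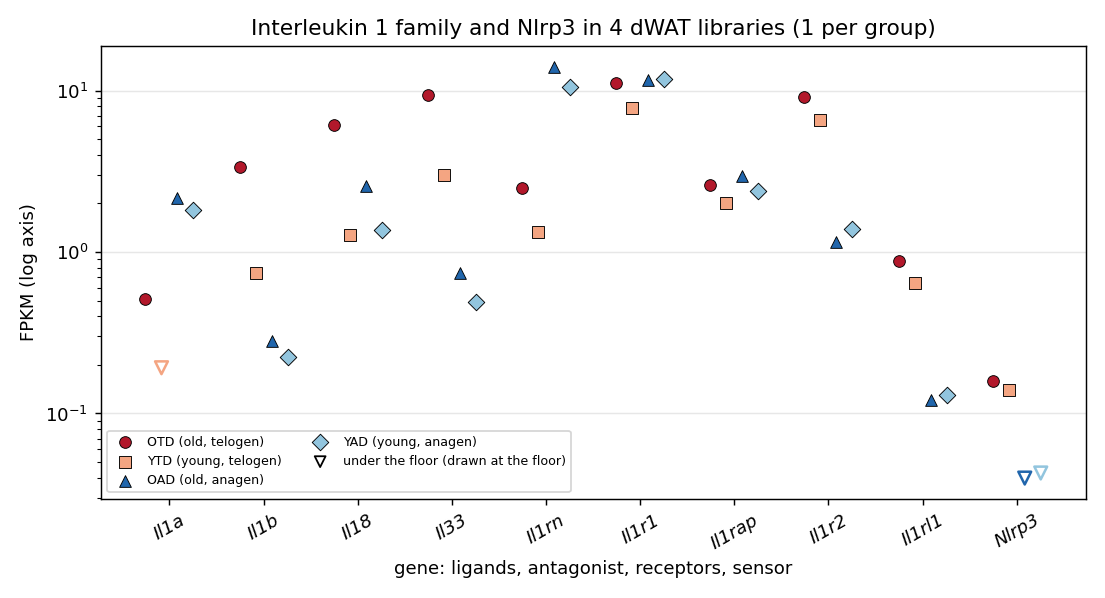
FPKM (log axis) of the 10 genes in the 4 libraries, 1 point per library; open triangles are values under the floor, drawn at the floor. Il1b, Il18 and Il33 were highest in OTD, Il1a and Il1rn in the anagen libraries, and Il1r1 lay between 7.77 and 11.8 FPKM in all 4.

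Of the 4 ligands, Il18, Il33 and Il1b were changed between ages in telogen, all higher in old dWAT. Il18 stood at 1.27 FPKM in YTD, 6.15 in OTD, 1.37 in YAD and 2.57 in OAD. OTD was thus the high library, and YTD and YAD were the lowest and close to each other. In telogen Il18 was 4.85-fold higher in old dWAT (interval 2.71 to 9.29, log2 difference 1.66), the largest log2 difference among the 10 genes. Il33 had 3.01 FPKM in YTD, 9.37 in OTD, 0.488 in YAD and 0.739 in OAD. Both telogen libraries lay above both anagen libraries, and OTD lay 3.11-fold above YTD (interval 2.23 to 4.43, log2 difference 1.37). Il1b had 0.739 FPKM in YTD, 3.37 in OTD, 0.223 in YAD and 0.281 in OAD. It was at a low level in 3 of the 4 libraries, where it rested on 11.5 estimated fragments in YTD, 5.54 in OAD and 4.09 in YAD, against 56.5 in OTD. In telogen it was 4.56-fold higher in old dWAT (interval 2.41 to 9.34, log2 difference 1.33).

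The remaining ligand, Il1a, followed another order. It was listed at 0.0372 FPKM in YTD, 0.515 in OTD, 1.81 in YAD and 2.17 in OAD. The YTD value is under the floor of 0.192. OTD, with 8.67 estimated fragments, lay 2.68-fold above that floor, counting error left out, and the log2 difference of 0.55 from YTD did not reach 1. That depends on the pseudocount: with 0.1 or 0.01 in place of 1 the difference was 2.16 or 3.48, and 4 of the 10 genes were then changed in telogen. The antagonist Il1rn had 1.33 FPKM in YTD, 2.5 in OTD, 10.5 in YAD and 14.1 in OAD, the same order of libraries as Il1a. Between ages in telogen its ratio was 1.89, with an interval of 0.96 to 3.87 that includes 1 (log2 difference 0.59).

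The receptor chains differed less between ages in telogen, and none was counted as changed. Il1r1, the signalling chain, had 7.77 FPKM in YTD, 11.2 in OTD, 11.8 in YAD and 11.6 in OAD. YTD was the low library, 1.44-fold below OTD (interval 1.23 to 1.69, log2 difference 0.47). The decoy receptor Il1r2 had 6.54 FPKM in YTD, 9.16 in OTD, 1.39 in YAD and 1.16 in OAD, and was 1.4-fold higher in old telogen dWAT (interval 1.14 to 1.73, log2 difference 0.43). The accessory chain Il1rap had 2 FPKM in YTD, 2.61 in OTD, 2.4 in YAD and 2.95 in OAD. Its 4 values lay close together, and the interval of its telogen ratio, 0.967 to 1.76, includes 1. Il1rl1, the Il33 receptor chain, had 0.643 FPKM in YTD, 0.886 in OTD, 0.131 in YAD and 0.122 in OAD, and the interval of its telogen ratio, 0.767 to 2.52, also includes 1. Nlrp3 had 0.159 FPKM in OTD, 0.14 in YTD and 0.012 in OAD and was listed at 0 in YAD. It was low everywhere, with 10.2 and 8.34 estimated fragments in telogen and both anagen values under the floor, and a difference between ages could not be detected at this depth in telogen (ratio 1.14, interval 0.405 to 3.32).

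As a list, all 10 genes were higher in OTD than YTD, by a median log2 difference of 0.51. Over all genes 7889 of 17230 were higher, with a median of -0.03. The intervals of Il1rn, Il1rap, Il1rl1 and Nlrp3 include 1, so the direction of these genes was not resolved. Of the 10, 3 were counted as changed to higher and 0 to lower. Of the 17230 genes with a value above 0 in a telogen library, 1.67% were changed to higher and 1.93% to lower. With an FPKM of at least 1 required, 7 of the 10 genes remained, of which the same 3 were changed, against 2.21% higher and 2.57% lower among 12982 genes. The split over all genes, 287 higher and 333 lower, depends on the scaling: it was 656 and 270 once mitochondrially encoded genes were left out and the libraries rescaled, and 627 and 321 without mitochondrial, muscle, hair and melanocyte genes, while the 3 calls among the 10 genes stayed at 3 under each scaling tried.

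**Figure D2:**
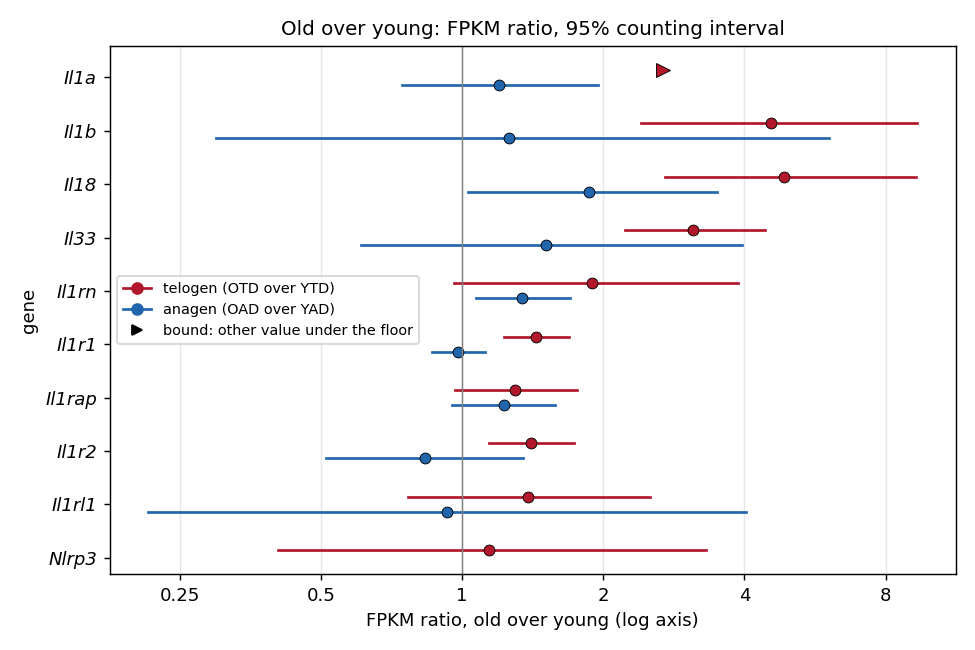
Ratio of FPKM, old over young (log axis), for each gene in telogen (red) and anagen (blue), with 95% counting intervals; the triangle is a lower bound. In telogen the intervals of Il1b, Il18, Il33, Il1r1 and Il1r2 lie above 1, and in anagen those of Il18 and Il1rn.

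In anagen, none of the 10 genes was counted as changed between ages, where 0.727% of 17613 genes were changed to higher and 0.454% to lower, a split of 128 against 80 that was 104 against 175 after rescaling to TPM, 132 against 183 without mitochondrially encoded genes and 153 against 198 without mitochondrial, muscle, hair and melanocyte genes. Of the 10 genes, 7 were higher in OAD and 3 lower, with a median log2 difference of 0.12 against 0.00 over all genes. Il18 was again the gene with the largest difference, 0.59 on the log2 scale, at 1.87-fold higher in old dWAT (interval 1.03 to 3.49). Il1rn came next, 1.34-fold higher in OAD (interval 1.07 to 1.7, log2 difference 0.39). For Il33 the anagen ratio was 1.51 with an interval of 0.61 to 3.96, and for Il1b it was 1.26 with an interval of 0.299 to 6.07, so that the telogen ratios of both genes lie inside these anagen intervals, while that of Il18 lies outside its own. The ratio of Il1r1 was 0.981 (interval 0.862 to 1.12) and that of Il1r2 was 0.833 (interval 0.513 to 1.35). The telogen difference was larger than the anagen one by 1.26 for Il1b, 1.15 for Il33 and 1.07 for Il18 on the log2 scale, and by 0.58 or less for the other 7 genes. This gap between phases was not tested.

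Between phases, more of the 10 genes were changed, and in both directions. In young dWAT 2 were higher in anagen (Il1rn and Il1a) and 2 lower (Il1r2 and Il33), where 16.1% of 17622 genes were changed to higher and 16.7% to lower. In old dWAT the same 4 were changed in the same directions, with Il1b and Il18 also lower, where 16.1% of 17712 genes were changed to higher and 15.6% to lower. The split over all genes was 2829 against 2938 in young and 2854 against 2759 in old dWAT, and 5891 against 1274 and 4923 against 1502 after rescaling to TPM. As a list, 5 of the 10 were higher and 5 lower in young anagen (median log2 difference -0.06), and 4 higher and 6 lower in old anagen (median -0.47), where the medians of all genes were 0.02 and 0.01. After rescaling to TPM the medians of the 10 genes were 0.20 and -0.33, and those of all genes 0.45 and 0.32. With a pseudocount of 0.1 the medians of the 10 genes were -0.58 in young and -1.22 in old dWAT, and with 0.01 they were -0.78 and -2.01.

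Il1rn was 7.93-fold higher in YAD than YTD (interval 4.56 to 14.9) and 5.64-fold higher in OAD than OTD (interval 3.78 to 8.73). Il1a was at least 9.4-fold higher in young anagen, since YTD was under the floor, and 4.22-fold higher in old anagen (interval 2.03 to 9.84). Both genes were thus higher in anagen at both ages. The keratinocyte markers were higher in anagen too: all 10 of 10 at both ages, with a summed FPKM of 75.9 in OTD and 123 in YTD against 2715 in OAD and 2052 in YAD, and Krt1 at 0 in YTD. Hair shaft markers (10 of 10) and melanocyte markers (7 of 7) were also higher in anagen at both ages. Their median log2 differences were 6.68 and 4.86 in young and 8.18 and 4.29 in old dWAT, against 2.65 and 3.07 for the keratinocyte markers. Between ages in telogen, 8 of the keratinocyte markers were lower in OTD than YTD and 2 higher (median log2 difference -0.36). The values of Il1a and Il1rn were larger in OTD, that of Il1rn not beyond counting error. The part of any of these cell types in the Il1a and Il1rn levels was not tested.

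Il33 was 6.17-fold lower in anagen in young dWAT (interval 2.98 to 14.3) and 12.7-fold lower in old dWAT (interval 7.34 to 23.8). Il1r2 was 4.71-fold lower in young anagen (interval 3.3 to 6.88) and 7.91-fold lower in old anagen (interval 5.53 to 11.6). After rescaling to TPM both genes came close to the threshold in young dWAT, Il1r2 with a log2 difference of -1.06 in place of -1.66 and Il33 at the threshold itself in place of -1.43. The genes Il1b, Il1rl1 and Nlrp3, had fewer estimated fragments in anagen than these. Il1b was 12-fold lower in OAD than OTD (interval 5.17 to 34, log2 difference -1.77), and in young dWAT it was 3.31-fold lower in anagen, with an interval of the ratio of 0.071 to 0.997 just below 1; the log2 difference of -0.51 did not reach 1, and was -1.38 with a pseudocount of 0.1. Il1rl1 was 4.91-fold lower in young anagen (interval 1.8 to 16.7) and 7.27-fold lower in old anagen (interval 2.8 to 24), with log2 differences of -0.54 and -0.75 that did not reach 1 at its low FPKM. For Nlrp3, the telogen value lay 3.27-fold above the anagen floor in young and 4-fold above it in old dWAT. These bounds leave out counting error and rest on 8.34 and 10.2 estimated fragments in telogen. Il18 did not differ beyond counting error between the young libraries (ratio 1.08, interval 0.509 to 2.35) and was 2.4-fold lower in OAD than OTD (interval 1.59 to 3.68), just at the threshold, with a log2 difference of -0.51 after rescaling to TPM. The log2 difference of Il1r1 was 0.55 in young and 0.05 in old dWAT, and that of Il1rap 0.18 and 0.13. After rescaling to TPM, Il1r1 reached 1.32 in young dWAT and counted as changed.

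**Figure D3:**
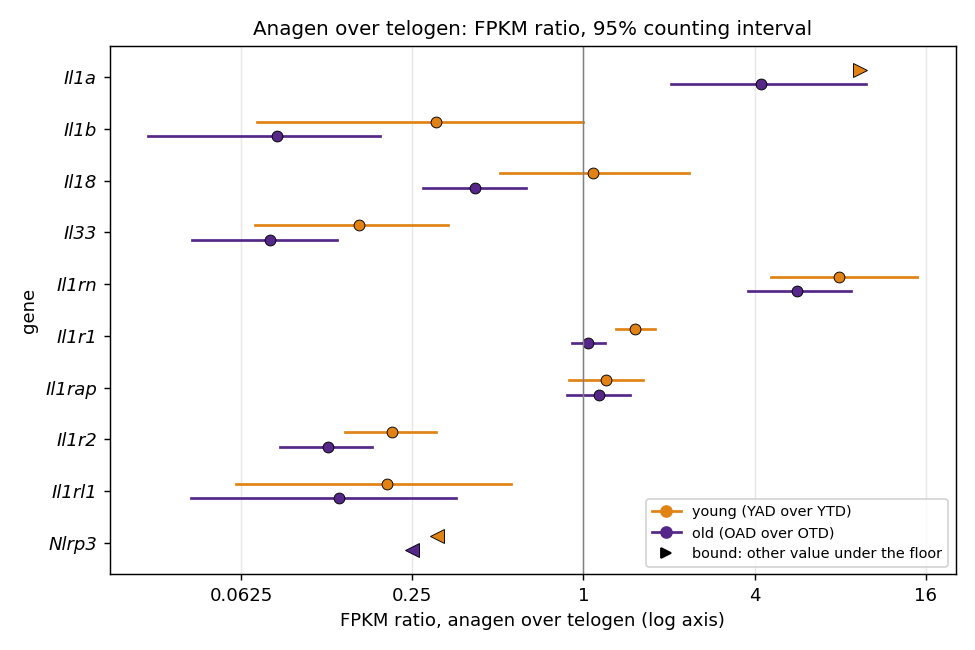
Ratio of FPKM, anagen over telogen (log axis), in young (orange) and old (purple) dWAT, with 95% counting intervals; triangles are bounds where the other value was under the floor. Il1a and Il1rn lie to the right of 1 at both ages, and Il1b, Il33, Il1r2, Il1rl1 and Nlrp3 to the left.

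Markers of some blood and vessel cells had the same order of libraries as some of these genes. The 7 endothelial markers were all higher in OTD than YTD (median log2 difference 0.78), with a summed FPKM of 226 in YTD, 380 in OTD, 63.7 in YAD and 86.2 in OAD. This is the order of libraries of Il33, Il1b and Nlrp3, though for these genes OAD and YAD were not apart beyond counting error. It is also the order of the adipocyte sums, 6432 in YTD, 7797 in OTD, 1911 in YAD and 2734 in OAD, and of the dendritic cell sums given below. The macrophage list was higher in OTD for 11 of 12 genes (median log2 difference 0.26) and lower in OAD than YAD for 11 of 12 (median -0.24), with sums of 368, 282, 129 and 152 FPKM in OTD, YTD, OAD and YAD and no marker at 0. For mast cells, 7 of 7 markers were higher in OTD, and the sums in that sequence of libraries, which is kept for the next lists, were 96.7, 66.8, 23.7 and 30.8. This is the order of Il1rl1 and Il1r2, and the macrophage and fibroblast sums share it. The order of OAD and YAD was not resolved for either gene, with intervals of the ratio of 0.214 to 4.04 for Il1rl1 and 0.513 to 1.35 for Il1r2. Neutrophil markers summed to 137, 119, 142 and 59.2, carried mostly by S100a8 (123, 114, 129 and 56.7), while Mpo was at 0 in all 4 libraries and Ly6g in all but OAD. Dendritic and Langerhans cell markers summed to 11, 6.7, 2.2 and 1.88, with Cd207 at 0 in 3 libraries. The 9 T cell and innate lymphoid markers summed to 56.5, 47.8, 80.5 and 86.4, with Cd3d, Cd3g, Cd4 or Cd8a at 0 in some. The larger lymphoid sums in anagen were carried by Gata3 (0.935, 2.06, 53.5 and 57.9). Of these lymphoid markers, 7 of 9 were lower in young anagen, and 7 of 8 with a value were lower in old anagen. Fibroblast markers were higher in OTD for 8 of 9 genes, with sums of 1353, 909, 187 and 335. The part of any of these cell types in the levels of the 10 genes was not tested.

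Ratios within a library do not depend on the scaling between libraries. The antagonist Il1rn stood at 0.743 of the Il1b level in OTD (interval 0.454 to 1.19) and at 1.8 in YTD (interval 0.771 to 4.25), values whose intervals overlap. In anagen Il1rn was 50.2 times Il1b in OAD (interval 22.6 to 139) and 47.1 times in YAD (interval 18 to 176). Relative to Il1a, by contrast, Il1rn was at least 6.91 in YTD, 4.86 in OTD, 5.82 in YAD and 6.5 in OAD, and the intervals of the latter 3 overlapped. The ligand that led within the Il1a and Il1b pair changed with the phase: Il1a was 0.153 of Il1b in OTD (interval 0.0665 to 0.311) but 7.71 in OAD (interval 3.27 to 22.2) and 8.09 in YAD (interval 2.88 to 31.4). In YTD Il1a was under the floor. The decoy Il1r2 was at 0.819 of Il1r1 in OTD and 0.842 in YTD, against 0.0998 in OAD and 0.117 in YAD, with no overlap of the telogen and anagen intervals. Il1rap stayed between 0.203 and 0.258 of Il1r1 in all 4 libraries, and all 4 intervals overlapped.

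The 4 ligands together summed to 5.06 FPKM in YTD, 19.4 in OTD, 3.89 in YAD and 5.76 in OAD. Il33 made up 48.3% of this sum in OTD and 59.5% in YTD but 12.8% in OAD and 12.5% in YAD. Il1a made up 2.65% in OTD and 0.735% in YTD, against 37.7% in OAD and 46.4% in YAD. Its YTD share comes from a value under the floor and is uncertain. Il18 took 25.1% in YTD, 31.7% in OTD, 35.3% in YAD and 44.6% in OAD. Il1b took 14.6% in YTD, 17.4% in OTD, 5.74% in YAD and 4.89% in OAD. Per unit of its receptor chain, Il33 was at 10.6 times Il1rl1 in OTD (interval 7.16 to 16.1) and 4.68 in YTD (interval 2.74 to 8.26). In anagen it was at 6.06 in OAD (interval 2.06 to 21.5) and 3.72 in YAD (interval 1.12 to 14.1). All 4 of these intervals overlapped. Il18 was at 1.48 times the level of Il18bp, its secreted binding protein, in OTD (interval 1.02 to 2.16) and 0.507 in YTD (interval 0.247 to 0.996). The matching anagen values were 1.33 in OAD (interval 0.784 to 2.27) and 0.679 in YAD (interval 0.352 to 1.28), which include 1. The old library thus had the larger value in both phases, with intervals that are apart in telogen and overlap in anagen.

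**Figure D4:**
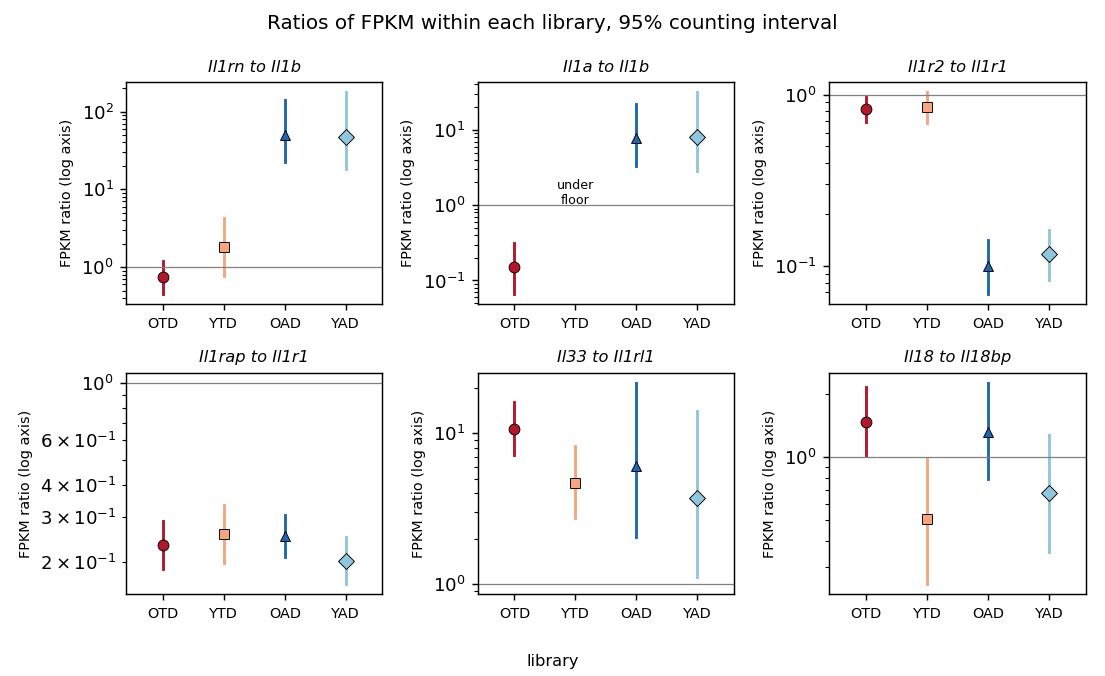
Ratios of FPKM within each library (log axes), with 95% counting intervals; the line marks a ratio of 1. Il1rn to Il1b is 0.743 in OTD and 50.2 in OAD, Il1r2 to Il1r1 goes from 0.819 to 0.0998, and Il1rap to Il1r1 stays between 0.203 and 0.258.

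Of 52 other genes of the pathway, 46 had a value in a telogen library, of which 32 were higher in OTD and 14 lower, with a median log2 difference of 0.17. Changed between ages in telogen were 2 of them, both higher in OTD and both from the group of adaptor, proteases, pore and modifiers of the inflammasome, where 1.67% of all genes were changed to higher and 1.93% to lower. Casp1, the protease that cleaves Il1b and Il18, had 3.97 FPKM in YTD, 11.1 in OTD, 4.58 in YAD and 5.12 in OAD, and was 2.8-fold higher in OTD than YTD (interval 2.2 to 3.58, log2 difference 1.28). OTD was the high library, and the other 3 lay close together. Txnip, a thioredoxin-binding protein that can bind Nlrp3, had 166 FPKM in YTD, 390 in OTD, 47.4 in YAD and 65.4 in OAD, 2.35-fold higher in OTD than YTD (interval 2.26 to 2.44). In anagen 0 of 48 with a value were changed between ages, 27 being higher and 21 lower with a median of 0.03, where 0.727% of all genes were changed to higher and 0.454% to lower.

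By role, the 10 genes for the adaptor, proteases, pore and modifiers of the inflammasome had a median log2 difference of 0.33 in telogen, with 8 of 10 higher. Beside Txnip the most abundant was Ninj1, which acts in the rupture of dying cells, at 67.2 FPKM in OTD and 59.4 in YTD. Nek7, a kinase needed to activate Nlrp3, had the lowest telogen difference of this group, -0.08, at 38.4 FPKM in OTD and 40.7 in YTD. The adaptor Pycard had 5.73 FPKM in YTD, 7.13 in OTD, 23.9 in YAD and 22.5 in OAD. It was higher in anagen, 4.17-fold in young (interval 3.18 to 5.54) and 3.16-fold in old dWAT (interval 2.48 to 4.05), opposite to Nlrp3. Of the 12 sensors other than Nlrp3, 9 had a value in telogen and all 9 had a larger one in OTD (median log2 difference 0.12), and none was changed. Over all genes 7889 of 17230 were higher in OTD. The intervals of Nlrp1b (0.756 to 16.6), Nlrp10 (0.495 to 2.39), Nlrc4 (0.486 to 6.13) and Naip6 (0.774 to 3.86) include 1. Nlrp1a rested on 3.52 estimated fragments in OTD and was at 0 in YTD, so the direction of these sensors was not resolved. Mefv, the sensor known as pyrin, had 0.308 FPKM in OTD (15.5 estimated fragments), 4.79-fold above the floor of YTD, under which its YTD value lay. The ratio was 1.73 for Naip2 (interval 1.26 to 2.38) and 1.67 for Naip5 (interval 1.1 to 2.57). Their leading gene Aim2, a sensor of cytosolic DNA, had 1.66 FPKM in YTD, 3.4 in OTD, 1.93 in YAD and 0.51 in OAD, and Nlrp10 had 0.363 in YTD, 0.393 in OTD, 0.733 in YAD and 1.58 in OAD. Nlrp1b and Naip genes belong to families of near-identical copies, so values of single members are uncertain.

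Among the other ligands and antagonists, those with the highest mean FPKM lie beside Il1rn on chromosome 2. Il1f10, an interleukin 1 family cytokine (Il38), had 1.38 FPKM in YTD, 0.424 in OTD, 37.2 in YAD and 29.8 in OAD, and Il1f5, the antagonist of the interleukin 36 receptor, had 0.289 in YTD, 0.297 in OTD, 6.92 in YAD and 13.4 in OAD. Both were changed between phases at both ages, Il1f10 27-fold higher in young anagen (interval 15.3 to 52.6) and Il1f5 at least 20.9-fold, in the same direction as Il1rn. In anagen Il1f5 was 1.94-fold higher in OAD than YAD (interval 1.46 to 2.59, log2 difference 0.86). Il1f10 also had the lowest telogen difference of this group, a log2 value of -0.74 with an interval of the ratio, 0.072 to 1.01, that includes 1, and Il18bp the highest, 0.56 (4.16 FPKM in OTD and 2.5 in YTD).

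The receptor genes Il1r2, Il1r1, Il1rl2, Il1rl1, Il18r1 and Il18rap lie in this order on chromosome 1, from 40074079 to 40551705, and did not move as 1 block. Il1r2 and Il1rl1 were lower in anagen, whereas Il1rl2, the interleukin 36 receptor chain, had 3.64 FPKM in YTD, 5.44 in OTD, 9.82 in YAD and 8.58 in OAD. The Il18 receptor chains were near the floor, Il18r1 at 0.157 to 0.295 FPKM and Il18rap at 0 to 0.137. Sigirr, an inhibitory receptor of the family that lies elsewhere, had the largest telogen difference of the other receptors, 0.84, with 6.54 FPKM in OTD and 3.22 in YTD (ratio 2.03, interval 1.54 to 2.7). Among 18 genes of receptor signalling, 9 were higher and 9 lower in OTD, with a median of 0.01 and none changed. Irak3, an inhibitor of the pathway, had the largest difference upward, 0.73 (7.81 FPKM in OTD and 4.32 in YTD), and Tab1, part of a kinase complex, the largest downward, -0.48 (6.34 FPKM in OTD and 9.24 in YTD). The inhibitor Nfkbia, the most abundant of these, had 34.2 FPKM in YTD, 46.4 in OTD, 25.6 in YAD and 23.2 in OAD, and Tollip, the next in mean level, had 29.2 in YTD, 26.8 in OTD, 19.4 in YAD and 22.9 in OAD.

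**Figure D5:**
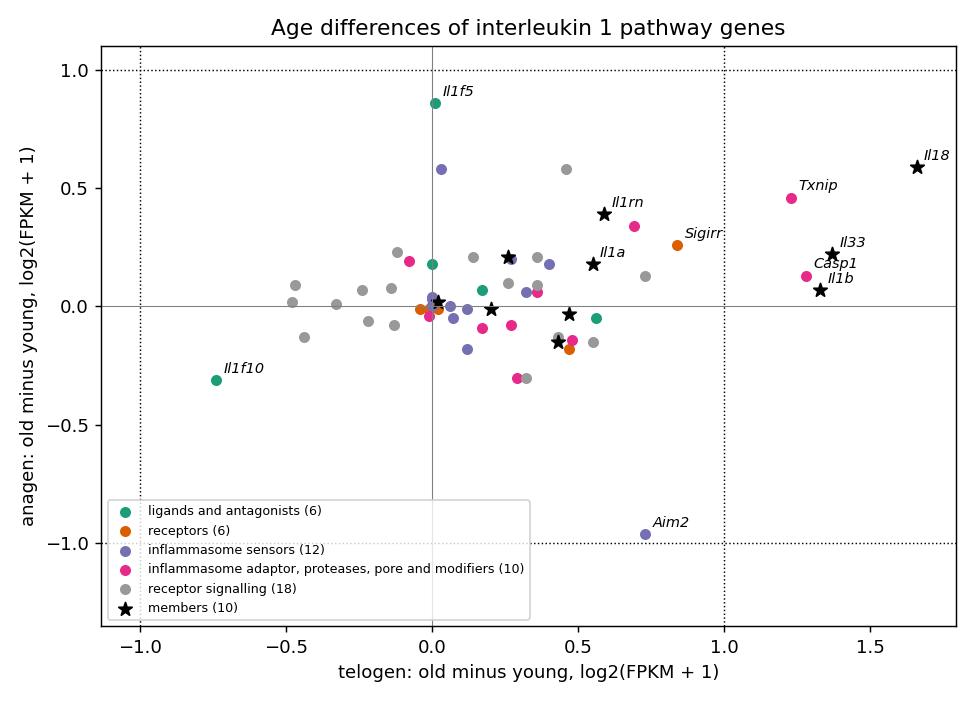
Difference in log2(FPKM + 1) between old and young dWAT in telogen (x axis) and anagen (y axis) for the 10 genes (stars) and the 52 other genes of the pathway (dots, by role); genes listed at 0 sit at 0, and dotted lines mark a size of 1. Il18, Il33, Il1b, Casp1 and Txnip lie beyond 1 in telogen, and none beyond 1 in anagen.

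Between phases, 10 of 48 other pathway genes were changed in young dWAT, 6 higher and 4 lower in anagen, and 12 of 49 in old dWAT, 4 higher and 8 lower. Over all genes 16.1% were higher and 16.7% lower in young and 16.1% and 15.6% in old dWAT. These splits of the pathway genes depend on the scaling: after rescaling to TPM they were 13 and 1 in young and 12 and 3 in old dWAT. Without mitochondrially encoded genes they were 8 and 3 in young and 5 and 12 in old dWAT. Casp4, a caspase that senses bacterial lipopolysaccharide, was 9.1-fold lower in young anagen (interval 5.09 to 17.7) and 8.96-fold lower in old anagen (interval 5.89 to 14.2).

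For Il1b, Il18 and Il33, the genes with the most similar course over the 4 libraries were sought among the 14203 genes that reached 1 FPKM in any library. Likeness was the Euclidean distance between log2(FPKM + 1) profiles centred on their own mean, so it describes 4 values only and carries no test. Nearest to Il1b were Gpr1 (distance 0.10), Gm454 (0.12) and Cnn1 (0.13), and 25 genes lay within 0.25. For Il33 they were Sele (0.15), an adhesion molecule of activated endothelium, Pln (0.18) and Bcl2a1b (0.19), which has near-identical copies and is uncertain. Il18 had fewer close profiles, with Gm2174 (0.15), Eci3 (0.20) and Irs2 (0.25) and 3 genes in all within 0.25. Sele had 4.07 FPKM in YTD, 13.7 in OTD, 0.837 in YAD and 1.29 in OAD. Pln and Bcl2a1b had the same order of libraries. All were picked for their likeness to Il33 over these values, so the shared order adds nothing further.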

How the data were processed

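The authors deposited FPKM for 22913 genes in each of 4 libraries, with gene positions on GRCm38. The submitters' processing notes name bcl2fastq and TopHat2, and the counting tool, annotation and any scaling between libraries are not given in the sources used here. The FPKM were used as deposited. Of the identifiers, 21750 were matched to a symbol. The members and gene lists were chosen with earlier results of these data known. Other pathway genes were named where they reached an FPKM of 1 and a change of 1 between ages, or were in their role group the 2 highest in mean FPKM or the largest difference upward or downward in telogen. The remaining ones named, Casp4, Pycard, Nlrp1a, Nlrp1b, Nlrc4, Mefv, the Naip genes, Il18r1 and Nfkb1, were chosen after their values were seen. Depth was estimated from features of 2000 to 4000 bases, and fragments per gene from FPKM, listed length and depth. The fragments are rough, and would differ if another length underlies the FPKM. Some values above 0 came to less than 1 estimated fragment, such as Il1a in YTD (0.58) and Il18rap in YAD (0.394). The floors and counting intervals are therefore approximate, and which part of the estimate is off was not tested. Steps were tested on simulated data. Alternatives were pseudocounts of 0.1 and 0.01, an FPKM of at least 1, 4 other scalings (median of ratios, TPM, without mitochondrially encoded genes, without mitochondrial, muscle, hair and melanocyte genes) and a threshold of 1.5. Python 3.11.15, numpy 2.4.6, pandas 2.3.3, scipy 1.17.1 and matplotlib 3.10.9 were used. No statistical test was run, because each group has 1 library.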

Additional observations from a re-analysis of the deposited data

Results flagged for a closer look

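The age difference pointed in opposite directions in telogen and anagen for 2 genes of the pathway, each past its counting interval in both phases. They were picked from the 10 members and 52 other pathway genes, and the share of all genes that meet this criterion is not given here. The intervals cover counting error only, and the difference between phases was not tested. Aim2 was 2.05-fold higher in OTD than YTD (interval 1.35 to 3.17) and 3.79-fold lower in OAD than YAD (interval 2.02 to 7.64), so that its log2 difference in telogen exceeded that in anagen by 1.68. Nfkb1 had 16.7 FPKM in OTD and 13.2 in YTD against 12.9 in OAD and 16.2 in YAD, a gap of 0.63 between its log2 differences. None of the 10 members met this criterion. With 1 library per group, no group could be searched for a sample far from the others.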

How the results depend on the processing

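No paired analysis was possible because each group has 1 library, and for the same reason no replicate could be left out. Of 268 log2 differences of the 10 members recomputed under an alternative, 266 kept their direction; the exceptions, both for old anagen against telogen without mitochondrially encoded genes, were Il1r1 at -0.11 and Il1rap at 0.00. All 67 telogen and all 66 anagen age differences kept theirs. Over the alternatives the telogen difference ranged from 1.21 to 2.17 for Il1b, 1.55 to 2.27 for Il18 and 1.32 to 1.65 for Il33.

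With a pseudocount of 0.1, the members changed came to 4 (telogen age, with Il1a gained) and 7 (young phase), the other pathway genes changed to 5 (telogen age), 2 (anagen age), 18 (young phase) and 22 (old phase), and all genes changed to 2144 (telogen age) and 1109 (anagen age). With a pseudocount of 0.01 the members came to 4 (telogen age), 1 (anagen age) and 7 (young phase), the other pathway genes to 9, 8, 22 and 26 and all genes to 3445, 2435, 9761 and 9616, in the same order. With a threshold of 1.5 the members came to 1 (telogen age) and 2 (young phase), the other pathway genes to 0 (telogen age) and 6 (old phase) and all genes to 141, 58, 3280 and 3178. After rescaling to TPM, without mitochondrially encoded genes and without mitochondrial, muscle, hair and melanocyte genes, 1 other pathway gene was changed between ages in anagen each time. All genes changed were 315 in the anagen age comparison without mitochondrially encoded genes, and 948 (telogen) and 351 (anagen) without mitochondrial, muscle, hair and melanocyte genes. TPM moved the median of all genes by -0.16 (anagen age), 0.44 (young phase) and 0.30 (old phase), and leaving out mitochondrially encoded genes by 0.13 (telogen age) and -0.12 (anagen age). The cause of these shifts was not tested. Of 34 ratios within a library, 16 left their counting interval when 1 was added to each FPKM. Depth limits Nlrp3, Il1rl1 and Il1b in anagen and Il1a in YTD, where 5.54 fragments or fewer were estimated.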
